A study of Mus musculus with 9 samples.

Results

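The SoxC and SoxD transcription factors were described in mouse neurospheres, which are free-floating colonies of progenitor cells. The SoxC members were Sox4, Sox11 and Sox12, and the SoxD members were Sox5, Sox6 and Sox13. Every probe set whose gene symbol in the array's annotation was 1 of these 6 genes was taken. That gave 29 probe sets of 45037, and 6 genes of the 18193 named on the array. A probe set was tested when its log2 value reached 5 on at least 3 of the 9 arrays, which 22 of the 29 did. By gene, 5 of 8 probe sets of Sox4 passed, 6 of 6 of Sox11, 2 of 3 of Sox12, 4 of 7 of Sox5, 4 of 4 of Sox6 and 1 of 1 of Sox13.

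The study compared 3 kinds of sphere at passage 3, with 3 arrays a kind, all of the strain C57BL/6J and started at embryonic day 12.5. BMP NCSC were neural crest stem cell spheres grown from dorsal root ganglia (DRG) with 10 ng/ml of BMP4, a bone morphogenetic protein. rNCSC were grown from DRG without BMP4, and SCSC from spinal cord without BMP4. All 3 kinds had 20 ng/ml bFGF and 20 ng/ml EGF in serum-free DMEM/F12 medium with heparin, N2, B27 and antibiotics, and none carried a transgene by the labels. Nothing in the labels ties an array to an embryo or a culture of its own, so a p-value here rests on the spread between arrays, which may be technical.

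All Sox proteins bind DNA through a high mobility group (HMG) box. SoxC proteins also carry a strong activation domain at their C terminus. Sox4 and Sox11 are known for driving the expression of neuronal genes and the survival of neural precursors, while Sox12 is the weaker activator of the group. SoxD proteins have no known activation or repression domain. They pair with each other through a coiled coil and act beside other factors. In cartilage, Sox5 and Sox6 work with Sox9 on matrix genes such as Col2a1. In the spinal cord they restrain the specification and maturation of oligodendrocytes, and Sox5 also acts in the neural crest.

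The start regions of the SoxC genes are shown because the group means of all tested SoxC probe sets were lower with BMP4, most of all those of Sox11. Each window runs from 250 bases before the annotated start to 50 bases after it, in RefSeq's annotation of build GRCm38.p6. All 3 lie on the minus strand and are read 5′ to 3′, at chr12:27342669-27342968 for Sox11, chr13:28953650-28953949 for Sox4 and chr2:152397997-152398296 for Sox12. Capitals mark a match on either strand to the CCAAT box (CCAAT), the GC box (GGGCGG), the E-box (CANNTG) or the octamer of POU factors (ATGCAAAT).
Sox11: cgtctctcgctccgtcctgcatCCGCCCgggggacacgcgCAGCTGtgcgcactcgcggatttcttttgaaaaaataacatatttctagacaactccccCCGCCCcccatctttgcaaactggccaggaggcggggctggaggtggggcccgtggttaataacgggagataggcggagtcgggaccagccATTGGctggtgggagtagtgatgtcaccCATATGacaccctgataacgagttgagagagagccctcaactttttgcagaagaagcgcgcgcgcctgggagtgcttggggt
Sox4: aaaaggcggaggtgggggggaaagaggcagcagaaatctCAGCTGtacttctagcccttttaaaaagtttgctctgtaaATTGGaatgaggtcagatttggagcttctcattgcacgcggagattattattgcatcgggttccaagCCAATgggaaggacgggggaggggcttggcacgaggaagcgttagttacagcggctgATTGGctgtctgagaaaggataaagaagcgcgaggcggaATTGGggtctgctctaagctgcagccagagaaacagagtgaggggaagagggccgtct
Sox12: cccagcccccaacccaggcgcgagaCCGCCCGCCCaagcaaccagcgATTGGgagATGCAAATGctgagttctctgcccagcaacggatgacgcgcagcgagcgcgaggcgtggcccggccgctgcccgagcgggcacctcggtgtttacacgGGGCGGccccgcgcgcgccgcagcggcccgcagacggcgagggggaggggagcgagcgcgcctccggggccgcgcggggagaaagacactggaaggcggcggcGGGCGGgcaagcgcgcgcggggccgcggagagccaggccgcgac
The Sox4 window held 4 CCAAT boxes and the other windows 1 each, while 37.4% of 32817 windows of the same length in the annotation held at least 1. GC boxes, which 35.6% of windows held, numbered 2 in Sox11, 0 in Sox4 and 4 in Sox12, where the first 2 share 2 bases. E-boxes, held by 72.3% of windows, numbered 2, 1 and 1 in the same order of genes. The octamer, held by 1.74% of windows, was found 1 time, in Sox12, where it overlaps the E-box. None of the 3 windows held a Sox core motif (AACAAT, in 10.7% of windows, or AACAAAG, in 5.85%), a TATA box (TATAAA, 13.6%) or the GC-rich Smad motif GGCGCC (11.9%). The Sox12 window had a GC content of 76.7% and 47 CpG, the Sox11 window 58.7% and 21, and the Sox4 window 52% and 12. The medians over all windows were 52.7% and 7. These matches describe the letters alone.

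All values are the deposited GCRMA values on the log2 scale, so a step of 1 is a doubling, and each difference is the first-named group minus the second. Array medians lay between 3.99 and 4.03. A probe set was called when limma gave an adjusted p below 0.05 and an absolute difference of at least 1, while "rose" and "fell" below need only that adjusted p. The level of 1 probe set is not set against that of another, since probes bind with different strength. The labelled cell types were checked on marker genes. Of 6 CNS progenitor markers, 6 were called lower in BMP NCSC than in rNCSC. With 1 probe set a gene, 21.3% of 10319 genes were called lower there. Olig2, Pax6, Fabp7, Sox1 and Zic1, which are 5 of the 6, had BMP NCSC means under 5. They passed the filter through the other groups, which fixed their direction. The mean log2 value of the 6 markers per array was 3.06 to 3.13 in BMP NCSC, 10.71 to 11.13 in rNCSC and 10.87 to 11.16 in SCSC. Sox10, a defining gene of the crest and its glia, averaged 11.56 ± 0.22 in BMP NCSC, 4.14 ± 0.17 in rNCSC and 4.05 ± 0.15 in SCSC (SD, n = 3 each), so the rNCSC, though grown from DRG, held little of it. Markers of peripheral neurons (4 on the array), microglia (6), erythroid cells (5) and skeletal muscle (6) had no gene past the filter. In other lists, 2 of 3 tested Schwann cell markers were called higher in BMP NCSC than in rNCSC (Erbb3 at 8.73 and Cdh19 at 4.24), as were the 1 melanocyte marker tested (Mitf, 3.43) and the 1 endothelial marker tested (Egfl7, 2.52), and their part in the results below was not tested. Of all genes 22.6% were called higher there, and Erbb3 passed the filter through BMP NCSC, which fixed its direction. The mean log2 value of the Schwann cell list was 8.34 to 8.52 on the BMP NCSC arrays, 4.93 to 5.49 on the rNCSC arrays and 4.85 to 5.11 on the SCSC arrays. For each gene the probe set with the highest mean value comes first and is called its lead.

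**Figure D1:**
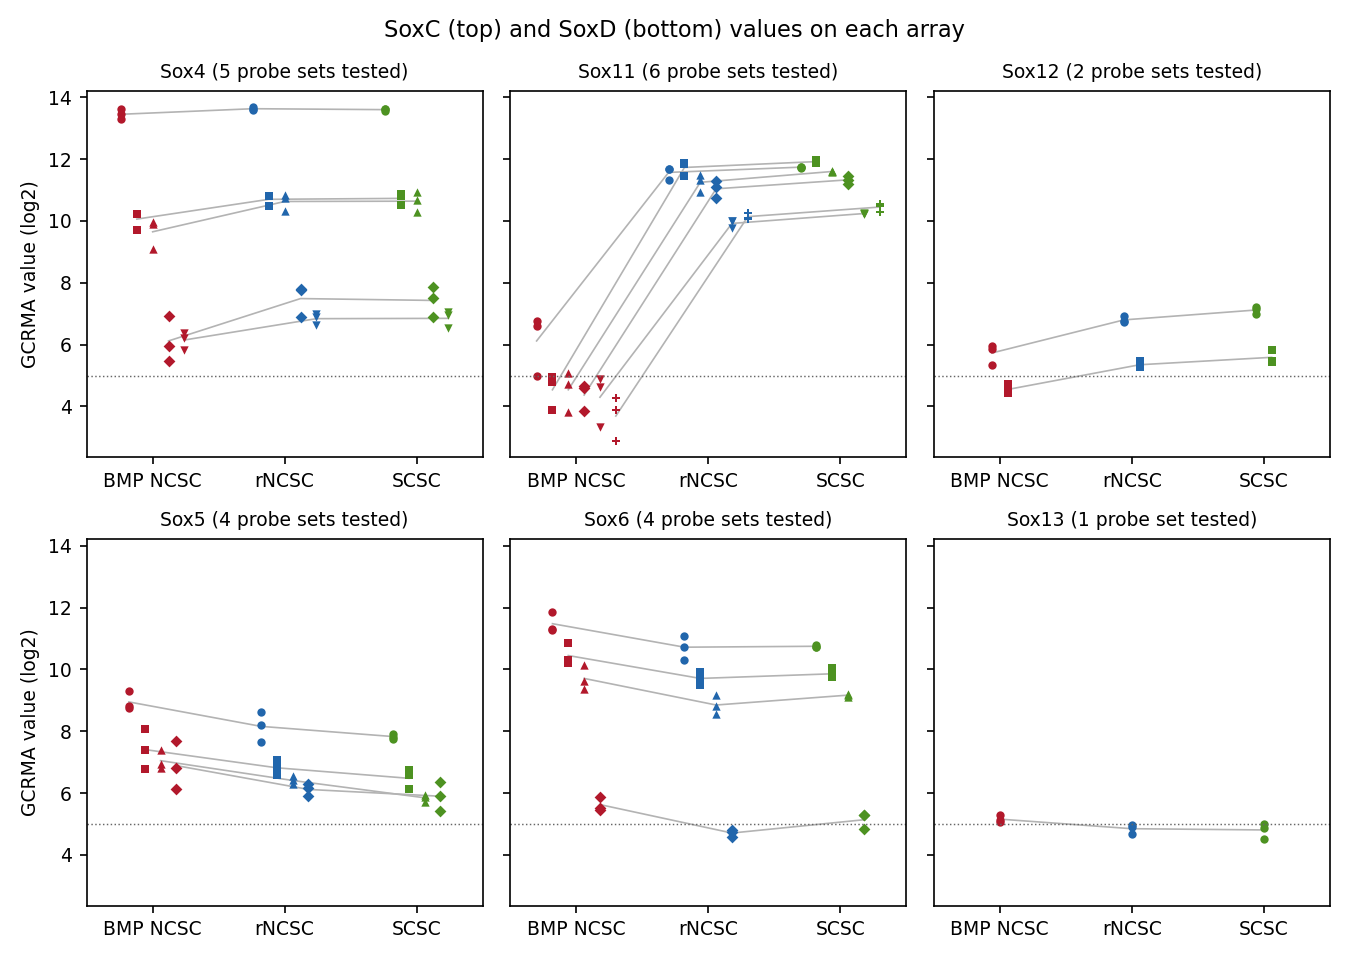
Log2 GCRMA values of the 22 tested probe sets on each of the 9 arrays, in 1 panel a gene, with BMP NCSC in red, rNCSC in blue and SCSC in green. Each marker shape is a probe set, grey lines join the group means, and the dotted line is the filter level of 5. The 6 Sox11 probe sets lie between 2.90 and 6.78 in BMP NCSC, against 9.76 to 11.89 in rNCSC and 10.22 to 11.96 in SCSC, and no other member separates as widely.

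Between DRG spheres grown with and without BMP4, the SoxC genes Sox11 and Sox12 fell and the SoxD gene Sox6 rose, while Sox4 and Sox5 passed at some of their probe sets. Sox11 fell by far the most, at each of its 6 probe sets. Of the 22 probe sets, 0 were called higher and 8 were called lower in BMP NCSC than in rNCSC, where 20.6% of the 19914 probe sets tested were called higher and 21.8% lower. Of the 8, 6 belong to Sox11, so they are not 8 separate findings. At any size, 12 SoxC probe sets fell and 6 SoxD probe sets rose, together 18 of 22. The same limit was met by 74.9% of all probe sets, and non-overlapping arrays were seen for 18 of 22 members and for 77.3% of all, so these shares are close to the background. The median difference was -1.37 over 13 SoxC probe sets and 0.77 over 9 SoxD probe sets, beside -0.12 over all tested. The 13 were 6 of Sox11, 5 of Sox4 and 2 of Sox12, so genes weigh unequally in that median. By the probe set of highest mean, these genes differed by -5.44, -0.18 and -1.07.

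Sox11, an activator of neuronal genes, was at 5.00, 6.78 and 6.60 in the 3 BMP NCSC arrays, 11.68, 11.69 and 11.33 in the rNCSC arrays and 11.72, 11.76 and 11.75 in the SCSC arrays at its lead probe set 1436790_a_at. Every BMP NCSC array lay far below every array without BMP4, and replicate 1 lay lowest. The difference from rNCSC was -5.44 (SE 0.40, adjusted p = 3.3e-06), a fold of 43.5. The probe set 1453125_at was at 3.88, 4.96 and 4.79 in BMP NCSC, 11.83, 11.89 and 11.45 in rNCSC and 11.96, 11.92 and 11.87 in SCSC. It shows the same separation, and its difference of -7.18 (SE 0.26, adjusted p = 4.1e-08) was the 60th among all tested probe sets by size in the lower direction. The other 4 Sox11 probe sets, 1429051_s_at, 1431225_at, 1453002_at and 1429372_at, differed by -6.71, -6.67, -5.62 and -6.45. For 5 of the 6 the BMP NCSC mean was under 5, so they passed the filter through the other groups alone and their direction was fixed by passing. GCRMA draws low signals together, so the size of these differences is less certain than their order. In bulk RNA, fewer cells that express a gene and less RNA in each cell cannot be told apart.

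Sox4, the other strong activator of the group, was high in all spheres. Its lead probe set 1433575_at was at 13.45, 13.61 and 13.29 in BMP NCSC, 13.68, 13.63 and 13.59 in rNCSC and 13.61, 13.63 and 13.56 in SCSC. These values overlap and lie near the top of the scale, where the highest value of each array was 14.53 to 14.59. The difference from rNCSC was -0.18 (SE 0.10, 95% interval -0.41 to 0.05, adjusted p = 0.13). The other 4 tested probe sets fell, with differences of -0.64 at 1419156_at (adjusted p = 0.01), -0.98 at 1419155_a_at (SE 0.27, adjusted p = 0.0095), -0.69 at 1449370_at (adjusted p = 0.0079) and -1.37 at 1419157_at. The last was the 1 called, at 5.97, 6.92 and 5.47 in BMP NCSC, 7.76, 7.81 and 6.91 in rNCSC and 7.50, 7.88 and 6.90 in SCSC (SE 0.41, adjusted p = 0.014). The highest BMP NCSC array lies just above the lowest rNCSC and SCSC arrays, so the groups overlap there. The probe set 1419155_a_at was called when 1 array was left out, at -1.14 without rNCSC replicate 3 or BMP NCSC replicate 2 and -1.11 without BMP NCSC replicate 1. The probe sets of Sox4 thus gave different answers on its size of change, and their positions in the transcript were not used here.

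Sox12, the weaker activator, fell at both tested probe sets. The lead probe set 1455562_at was at 5.96, 5.35 and 5.87 in BMP NCSC, 6.76, 6.72 and 6.92 in rNCSC and 7.15, 7.21 and 7.00 in SCSC. All BMP NCSC arrays lay below all others, and the difference from rNCSC was -1.07 (SE 0.16, adjusted p = 0.0003). It was called, but without BMP NCSC replicate 2 it was -0.88 (adjusted p = 0.00026) and under the size limit. The probe set 1439754_at was at 4.46, 4.44 and 4.74 in BMP NCSC, 5.47, 5.31 and 5.28 in rNCSC and 5.84, 5.44 and 5.48 in SCSC. It differed by -0.80 (SE 0.14, adjusted p = 0.0007), and it passed the filter through rNCSC and SCSC, which fixed its direction.

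Sox5, a SoxD partner of Sox9 in cartilage, was at 9.29, 8.82 and 8.75 in BMP NCSC, 7.64, 8.21 and 8.62 in rNCSC and 7.91, 7.82 and 7.76 in SCSC at its lead probe set 1455535_at. The BMP NCSC arrays lay above all others, and the rNCSC arrays spread over almost a doubling. The difference from rNCSC was 0.79 (SE 0.24, adjusted p = 0.015), and without BMP NCSC replicate 1 it was 0.63 (adjusted p = 0.056). The probe set 1440827_x_at rose too, at 7.38, 6.82 and 6.94 in BMP NCSC, 6.41, 6.28 and 6.55 in rNCSC and 5.95, 5.72 and 5.87 in SCSC (0.63, SE 0.16, adjusted p = 0.0056). At 1423500_a_at and 1432189_a_at the BMP NCSC arrays overlapped those of rNCSC, with differences of 0.60 (95% interval -0.11 to 1.31, adjusted p = 0.11) and 0.77 (-0.08 to 1.63, adjusted p = 0.09). Without BMP NCSC replicate 3 they were 0.92 (adjusted p = 0.013) and 1.14 (adjusted p = 0.014). BMP NCSC replicate 1 was the highest of its group at all 4 probe sets, at 8.06 beside 7.41 and 6.77 for 1423500_a_at and at 7.70 beside 6.81 and 6.15 for 1432189_a_at.

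Sox6, the second SoxD partner of Sox9, rose at all 4 of its probe sets by about the same amount. The lead probe set 1427677_a_at was at 11.28, 11.32 and 11.86 in BMP NCSC, 10.74, 11.08 and 10.32 in rNCSC and 10.80, 10.74 and 10.73 in SCSC. Each BMP NCSC array lay above each of the others, and the difference from rNCSC was 0.77 (SE 0.21, adjusted p = 0.0097), a fold of 1.7. The probe set 1434918_at was at 9.36, 9.62 and 10.15 in BMP NCSC, against 8.83, 9.18 and 8.55 in rNCSC and 9.22, 9.17 and 9.11 in SCSC, and 1447655_x_at was at 10.20, 10.30 and 10.85 in BMP NCSC, against 9.72, 9.91 and 9.50 in rNCSC and 9.79, 9.74 and 10.06 in SCSC. They rose by 0.85 (adjusted p = 0.0064) and 0.74 (adjusted p = 0.0065), with no overlap between BMP NCSC and the other groups. The probe set 1426018_a_at was at 5.47, 5.53 and 5.88 in BMP NCSC, 4.75, 4.82 and 4.58 in rNCSC and 5.28, 5.29 and 4.84 in SCSC. It rose by 0.91 (SE 0.16, adjusted p = 0.00074) but lay under the filter level on every rNCSC array. It could not have passed the filter without BMP NCSC arrays, which favoured its direction against rNCSC. None reached the size limit of 1 with all arrays, while 1434918_at was called without rNCSC replicate 2 (1.02) or BMP NCSC replicate 1 (1.03).

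Sox13, the third SoxD gene, was near the filter level everywhere. Its 1 probe set, 1450191_a_at, was at 5.08, 5.28 and 5.12 in BMP NCSC, 4.89, 4.69 and 4.96 in rNCSC and 4.87, 4.53 and 5.01 in SCSC. It reached 5 on every BMP NCSC array and otherwise on SCSC replicate 3 only. It thus passed the filter through BMP NCSC, which favoured its direction. The BMP NCSC arrays lay just above the others, and the difference from rNCSC of 0.31 (SE 0.14, 95% interval -0.01 to 0.63, adjusted p = 0.07) did not pass.

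**Figure D2:**
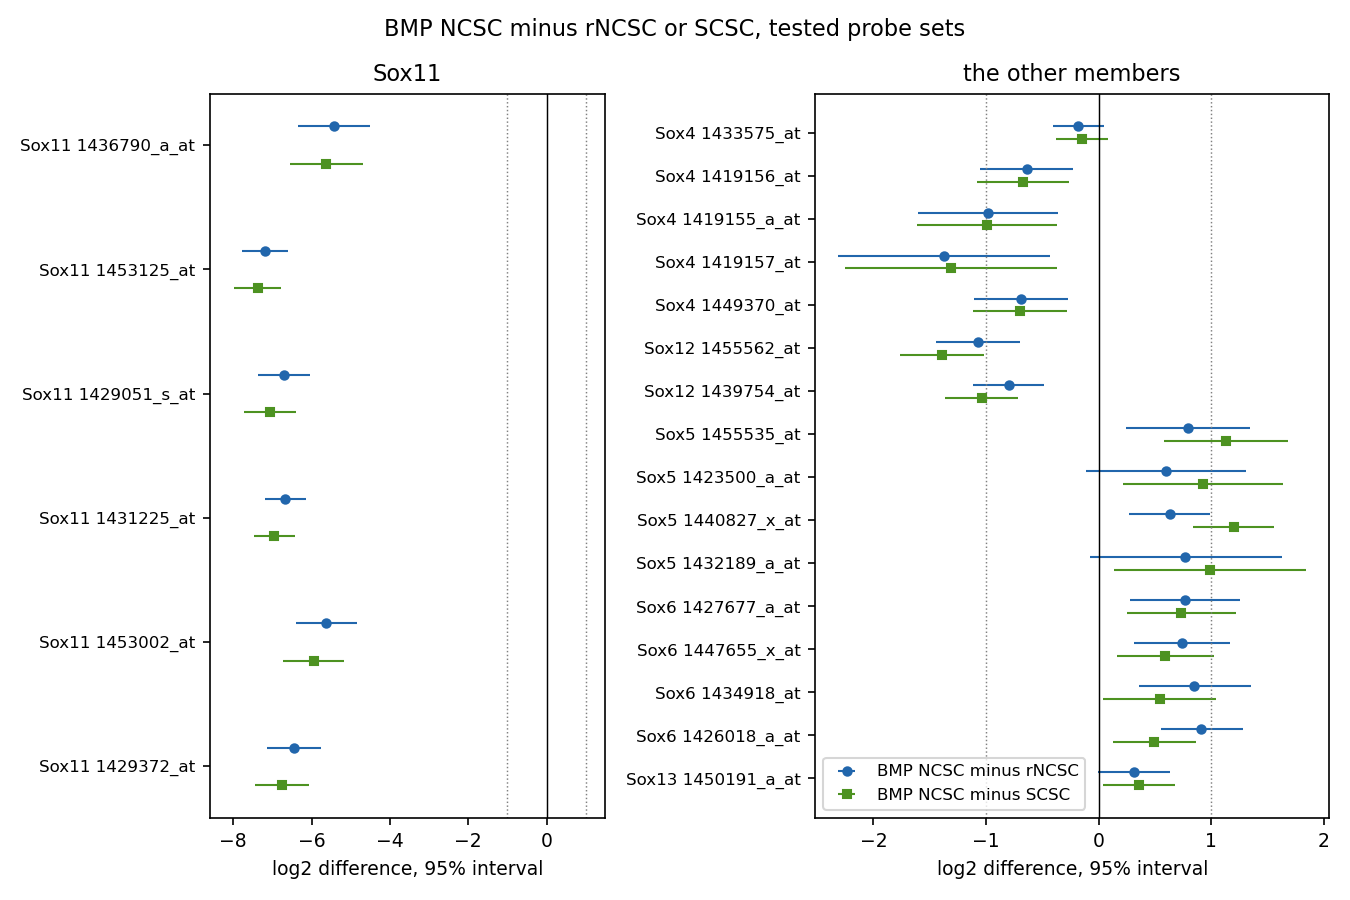
Log2 differences of the 22 tested probe sets with 95% intervals, BMP NCSC minus rNCSC as blue circles and BMP NCSC minus SCSC as green squares, with Sox11 on a scale of its own at the left. The dotted lines mark the size limit of 1 in each direction. Sox11 runs from -5.44 to -7.38, the other SoxC probe sets lie left of 0 and the SoxD probe sets right of it, apart from intervals that reach 0 at the Sox4 lead, Sox5 1423500_a_at and 1432189_a_at and Sox13.

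Set against the spinal cord spheres, BMP NCSC differed in both BMP4 and tissue of origin, and these cannot be told apart there. The BMP NCSC arrays are the same as in the comparison above, so the values stand beside it and are no second test. Here 2 members were called higher and 9 lower, where 21.3% of all probe sets were called higher and 23.8% lower. At any size 21 of 22 passed, against 76.7% of all probe sets, and 19 of 22 did not overlap, against 80.8%. Sox11 differed by -5.62 to -7.38 over its 6 probe sets (adjusted p from 2.2e-08 to 2.5e-06). Sox12 was called at both probe sets, with -1.39 (SE 0.16, adjusted p = 5.4e-05) at 1455562_at and -1.04 (SE 0.14, adjusted p = 0.00013) at 1439754_at. The direction of 1439754_at was fixed by passing the filter. Its difference was under the size limit without SCSC replicate 1 (-0.91), BMP NCSC replicate 2 (-0.99) or BMP NCSC replicate 1.

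The Sox4 lead probe set differed from SCSC by -0.15 (95% interval -0.38 to 0.08, adjusted p = 0.21). The called probe set 1419157_at, at -1.31 (SE 0.41, adjusted p = 0.017), missed the threshold without SCSC replicate 2 (adjusted p = 0.065), BMP NCSC replicate 1 (0.052) or BMP NCSC replicate 3 (0.06). The other 3 tested probe sets of Sox4 fell, with differences of -0.67, -0.99 and -0.70. The second of them, 1419155_a_at, was called without SCSC replicate 3 (-1.17) or BMP NCSC replicate 1 (-1.12) or 2 (-1.15). Both members called higher were of Sox5, namely 1440827_x_at at 1.20 (SE 0.16, adjusted p = 0.00012) and the lead 1455535_at at 1.13 (SE 0.24, adjusted p = 0.0024). The lead was under the size limit without BMP NCSC replicate 1, at 0.96. The remaining Sox5 probe sets rose by 0.93 (adjusted p = 0.022) and 0.99 (adjusted p = 0.037). Without SCSC replicate 2 both were called too, at 1.07 and 1.22, and likewise without BMP NCSC replicate 3, at 1.25 and 1.36.

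Sox6 rose against SCSC by 0.49 to 0.73 (adjusted p from 0.012 to 0.047), and Sox13, which passed the filter through BMP NCSC, by 0.36 (adjusted p = 0.044). Passing was fragile for several of these probe sets. Over the settings tried, Sox13 passed in 6 of 16, Sox6 1434918_at in 7 of 16 and Sox5 1432189_a_at in 10 of 16. The Sox6 lead passed in 17 of 17. With no filter, Sox13 (adjusted p = 0.054), Sox6 1434918_at (0.062) and Sox5 1432189_a_at (0.051) missed the limit. With only the 6 arrays compared, Sox13 (0.057) and Sox5 1432189_a_at (0.062) missed it. After another quantile normalization, Sox13 (0.092) and Sox6 1434918_at (0.06) did. Sox13 also missed it with the variance trend and robust prior (0.063), and Sox6 1434918_at with the replicate block (0.073). Sox13 missed the limit without rNCSC replicate 1, SCSC replicate 1 or 2 or any 1 of the BMP NCSC arrays (adjusted p from 0.059 to 0.15), and Sox6 1434918_at without rNCSC replicate 1, any 1 of the SCSC arrays, or BMP NCSC replicate 2 or 3 (0.065 to 0.15). Sox6 1447655_x_at missed it without SCSC replicate 1 (0.057) or 2 (0.063), and 1426018_a_at without SCSC replicate 3 (0.065) or BMP NCSC replicate 3 (0.066). For Sox5, 1423500_a_at missed it without SCSC replicate 3 (0.08) or BMP NCSC replicate 1 (0.066) or 2 (0.052), and 1432189_a_at without SCSC replicate 1 or 3 or BMP NCSC replicate 1 or 2 (0.07 to 0.13).

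The rNCSC and SCSC shared a medium and differed in tissue of origin, which is what their comparison asked about. None of the 22 probe sets was called by limma and none had an adjusted p below 0.05, with adjusted p from 0.23 to 0.99. Of all probe sets 0.00502% were called, which is 1 of 19914. Unadjusted, 2 members had a p below 0.05. These were Sox5 1440827_x_at, at 0.57 (95% interval 0.21 to 0.92, adjusted p = 0.23), and Sox6 1426018_a_at, at -0.42 (-0.79 to -0.06, adjusted p = 0.32). The arrays did not overlap for 7 of 22 members and for 19.4% of all probe sets, and 4 of those 7 were of Sox11. Without rNCSC replicate 2, limma called 25 probe sets higher and 58 lower over the whole array, and still 0 members.

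The order of the group means was the same over all probe sets of most genes. Sox11 was lowest in BMP NCSC, then rNCSC, then SCSC, with differences between rNCSC and SCSC of -0.35 to -0.18 that did not pass. Sox12 had the same order, with -0.32 and -0.24 between rNCSC and SCSC. Sox4 was lowest in BMP NCSC, and its rNCSC and SCSC means lay within -0.03 to 0.07 of each other, with 95% intervals from -0.87 to 1.01 over its probe sets. Sox5 was highest in BMP NCSC, then rNCSC, then SCSC, with rNCSC 0.22 to 0.57 above SCSC. Sox6 was lowest in rNCSC, then SCSC, then BMP NCSC, and its difference of rNCSC from SCSC was -0.42 to -0.04. Sox13 was lowest in SCSC, with rNCSC 0.04 above it. The order of rNCSC and SCSC turned in at least 1 of the settings tried for 7 of 22 probe sets, namely 4 of Sox4, Sox5 1432189_a_at, the Sox6 lead (-0.22 to 0.16) and Sox13 (-0.09 to 0.15). Differences inside the intervals, such as -1.10 to 0.75 for the Sox11 lead, were not detectable with 3 arrays a group.

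The 7 members under the filter lay between 1.70 and 4.31 on all arrays. They were 3 probe sets of Sox4 (1455867_at, 1458332_x_at and 1443778_at), 3 of Sox5 (1452511_at, 1432190_at and 1459261_at) and Sox12 1456882_at. With no filter none was called. The Sox4 probe set 1455867_at was then at -0.51 against rNCSC (adjusted p = 0.00095) and -0.63 against SCSC (adjusted p = 0.00023), and 1458332_x_at at -0.21 against rNCSC (adjusted p = 0.035). Sox5 1432190_at and 1452511_at were at 0.23 and 0.42 against SCSC (adjusted p = 0.038 and 0.041).

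The arrays within a group moved differently for each gene. The array numbered 3 was the lowest of its group at all 5 tested Sox4 probe sets in each of the 3 groups, as it was for 13% of all tested probe sets. In BMP NCSC, replicate 1 was lowest for Sox11 at 6 of 6 probe sets, with deviations of -1.13 to -0.51 from the group mean, and highest for Sox5 at 4 of 4, with deviations of 0.34 to 0.81. For Sox6, BMP NCSC replicate 3 was 0.25 to 0.44 above its mean at 4 of 4 probe sets. Probe sets of 1 gene share the same RNA, so these counts are not independent.

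**Figure D3:**
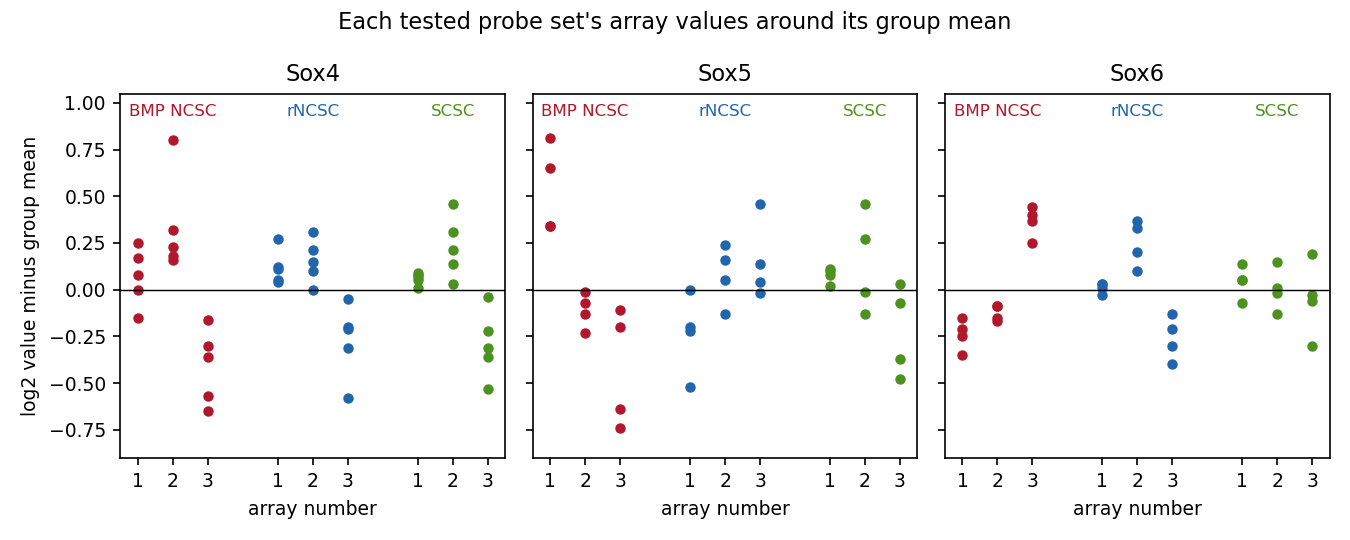
Each tested probe set's log2 value minus its group mean, for Sox4, Sox5 and Sox6, by array number within BMP NCSC (red), rNCSC (blue) and SCSC (green). For Sox4 all 5 points of array 3 lie below 0 in every group, while for Sox6 array 3 lies above 0 in BMP NCSC and below 0 in rNCSC.

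Of the 14 other Sox genes on the array, 7 were past the filter, and 1 was called higher and 4 lower in BMP NCSC than in rNCSC, with a median of -5.56. In that comparison, with 1 lead probe set a gene, 22.6% of 10319 genes were called higher and 21.3% lower, with a median of -0.07. The SoxB genes Sox1, Sox3 and Sox21 of neural progenitors differed by -5.56, -7.22 and -6.04, and Sox2 by -0.32 (adjusted p = 0.016). Among the SoxE genes, Sox8 differed by -7.88, Sox10 by 7.42 and Sox9, the cartilage partner of Sox5 and Sox6, by -0.77 (adjusted p = 0.011). Sox9 averaged 7.96 ± 0.24 in BMP NCSC, 8.73 ± 0.45 in rNCSC and 8.92 ± 0.074 in SCSC (SD, n = 3 each). Beside these, the Sox11 lead had a difference near that of Sox1, and the Sox4 lead, like Sox2, differed little, unlike the other Sox4 probe sets. Sox1, Sox3, Sox21 and Sox8 had BMP NCSC means under 4 and Sox10 rNCSC and SCSC means under 5, so passing the filter fixed their direction.

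**Figure D4:**
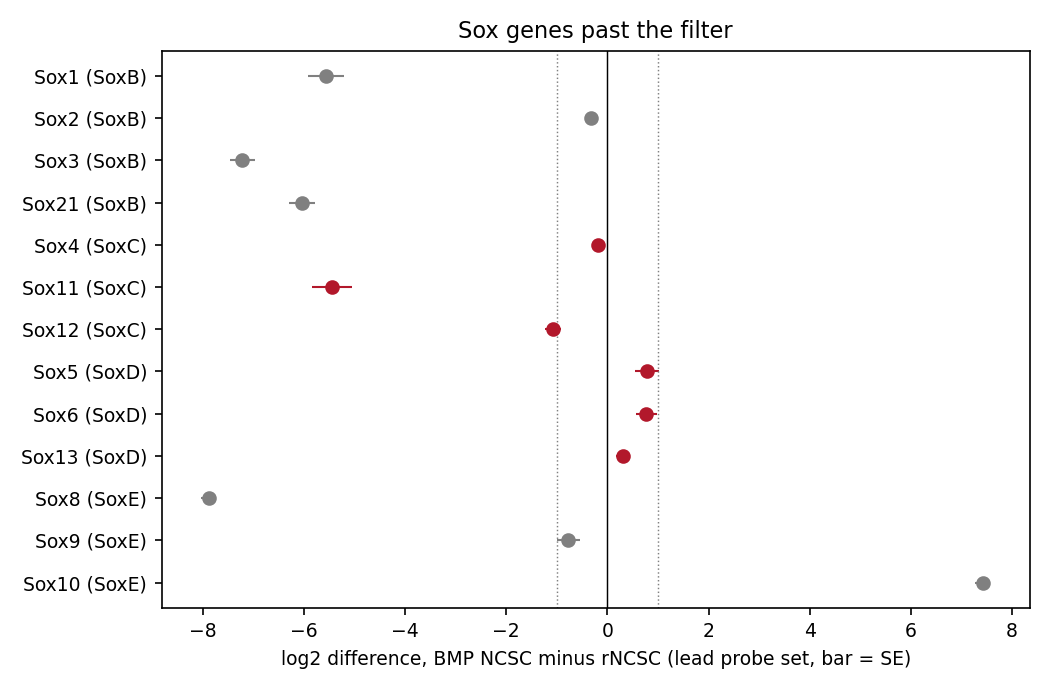
Log2 difference of BMP NCSC minus rNCSC for the lead probe set of each Sox gene past the filter, with its SE, by Sox group, and the SoxC and SoxD members in red. Sox11 at -5.44 lies near Sox1 at -5.56, and the other members lie between -1.07 and 0.79.

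Genes tied to these factors were counted on lists chosen with earlier results of the data known. A list of genes known to act under or beside SoxC factors held neuronal genes and also Tead2, and is called neuronal here. Of its 21 genes on the array, 6 were under the filter. Of the 15 tested, 0 were called higher and 11 lower in BMP NCSC than in rNCSC, with a median of -1.98. The axon growth protein gene Gap43 differed by -5.33, the transcription factor genes Neurod1 and Pou3f3 by -4.73 and -4.46, and Stmn1, which encodes a tubulin regulator, by -2.85. Insm1, a factor of neuronal precursors, was at -0.70 (adjusted p = 0.39) and Tubb3, the neuronal tubulin and a known target of Sox11, at -0.30 (adjusted p = 0.6). Tubb3 averaged 5.01 ± 0.6 in BMP NCSC, 5.31 ± 1 in rNCSC and 6.24 ± 0.25 in SCSC (SD, n = 3 each). Nefm was at 0.06 against rNCSC (adjusted p = 0.89). Stmn2, under the filter, averaged 4.01 ± 0.74, 2.89 ± 0.078 and 2.91 ± 0.061 in the same order of groups. Against SCSC, 13 of the 15 were called lower, with a median of -2.32, and Tubb3 was among them (-1.23, adjusted p = 0.044). Of all genes, 24% were called lower in BMP NCSC than in SCSC and 21.3% lower than in rNCSC. Of the 11 called lower than in rNCSC, 6 had a BMP NCSC mean under 5 and passed the filter through the other groups, which fixed their direction. These were Gap43, Neurod1, Dcx, Prox1, Pou3f2 and Neurod4. All 6, and Elavl3 with a BMP NCSC mean of 4.03, were among the 13 called lower than in SCSC. The same limit holds there. The CNS progenitor markers given above fell alongside Sox11 and these genes, and their part in the result was not tested.

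Of the listed cartilage genes that are controlled by Sox9 with Sox5 and Sox6, 22 were on the array. The filter left out 10 of them, and 6 lay under 4 on every array. Of the 12 tested, 12 were called higher in BMP NCSC than in rNCSC, with a median of 7.85. In the same comparison Sox6 rose by 0.74 to 0.91 and Sox5 rose at 2 of 4 tested probe sets, while Sox9 fell (-0.77, adjusted p = 0.011). Cnmd, which encodes chondromodulin, differed by 11.17, the collagen gene Col2a1 by 11.00, Cytl1 by 10.69 and the collagen gene Col9a1 by 9.23. Against SCSC 12 of 12 were called higher, with a median of 7.83. Of all genes, 22.6% were called higher in BMP NCSC than in rNCSC and 22.9% higher than in SCSC. The mean log2 value of the list's genes was 7.98 to 8.49 on the BMP NCSC arrays, 3.65 to 4.01 on the rNCSC arrays and 3.58 to 3.75 on the SCSC arrays. Of the 12, 9 had rNCSC and SCSC means under 5 and passed the filter through BMP NCSC, which fixed their direction. Col2a1, Cnmd, Cytl1 and Col9a1 were among them.

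Of 7 oligodendrocyte lineage genes tested, a lineage that Sox5 and Sox6 restrain, 1 was called higher and 5 lower in BMP NCSC than in rNCSC, with a median of -3.24. Olig1 and Olig2, its transcription factors, differed by -11.08 and -10.63, Bcas1 by -4.38 and the proteoglycan gene Cspg4 by 3.62. Pdgfra, the receptor of its precursors, was at 1.31 (adjusted p = 0.14). Of the 14 genes of the list on the array, 7 were under the filter. On every array 5 lay under 4, with Mag, Mog and Myrf among them. Lists share genes, since Olig2 was also a CNS progenitor marker above and Erbb3, given next, a Schwann cell marker. Of 12 neural crest genes tested, 10 were called higher and 0 lower, with a median of 3.52, among them Erbb3 at 8.73, Snai2 at 8.46, Tfap2a at 6.93 and Tfap2b at 6.81, while Ets1 and Rhob rose by 0.86 and 0.90. The filter fixed the direction of 4 of the 5 oligodendrocyte genes called lower (Olig1, Olig2, Nkx2-2 and Bcas1), whose BMP NCSC means were under 5. It likewise fixed that of 7 of the 10 crest genes called higher (Erbb3, Snai2, Tfap2a, Tfap2b, Twist1, Msx2 and Ngfr), whose rNCSC and SCSC means were under 5. Against SCSC the counts were 1 higher and 5 lower for the oligodendrocyte list, with a median of -5.08, and 10 higher and 0 lower for the crest list, with a median of 3.86. Of all genes, 22.6% were called higher and 21.3% lower in BMP NCSC than in rNCSC. Against SCSC these shares were 22.9% and 24%. Between rNCSC and SCSC no gene of the 5 lists was called by limma.

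**Figure D5:**
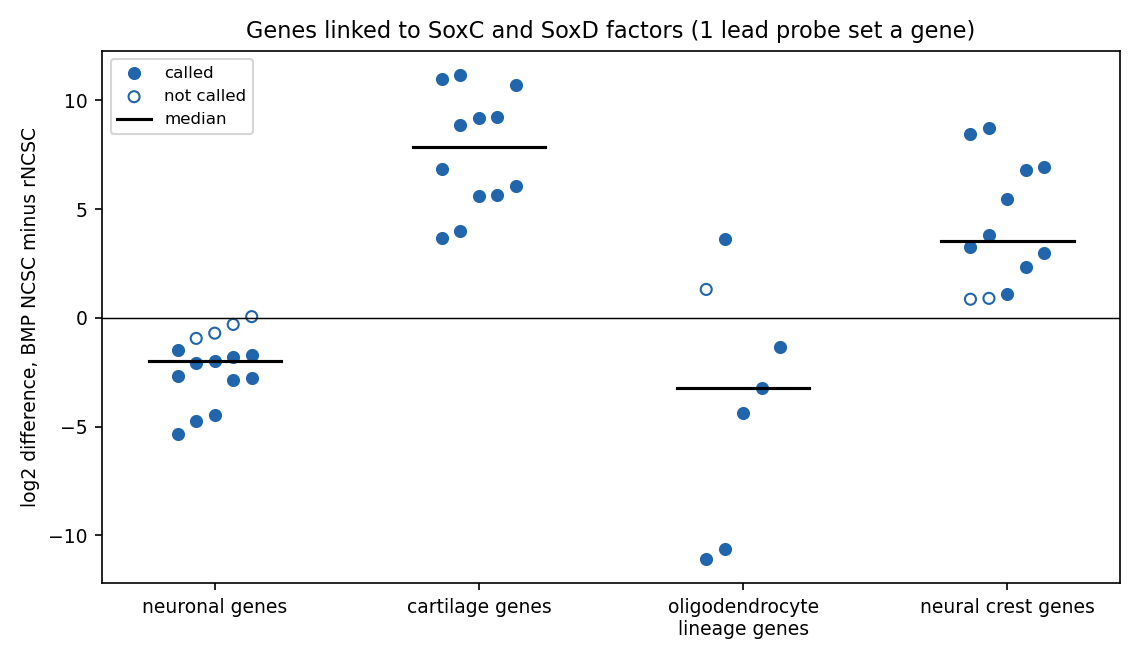
Log2 difference of BMP NCSC minus rNCSC for each tested gene of the 4 lists (lead probe set), filled where called and open where not, with a bar at each list's median. The medians are -1.98 for neuronal, 7.85 for cartilage, -3.24 for oligodendrocyte lineage and 3.52 for neural crest genes.

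The genes with the profile most like each member's were found over the 9 arrays, as the smallest root mean square difference between lead probe sets after each profile's own mean was taken off, among 10318 other genes. For Sox11 they were Prc1 (0.17), Ska1 (0.24) and Cdca8 (0.24), which averaged 5.31, 3.23 and 6.56 in BMP NCSC, 10.64, 8.75 and 12.22 in rNCSC and 10.75, 8.74 and 12.36 in SCSC. For Sox4 they were Aplf (0.05), Cox6a1 (0.05) and Gabarapl2 (0.06), and for Sox12 Zfp619 (0.13), 2810004N23Rik (0.14) and Ttll11 (0.14). For Sox5 they were Vps13b (0.17), Fam122a (0.17) and Fzd2 (0.18), for Sox6 Phka2 (0.13), Tmem38b (0.14) and Dennd1a (0.14), and for Sox13 Nxph3 (0.07), Septin8 (0.08) and Bloc1s4 (0.09). A nearly flat profile such as that of Sox4 is close to many other flat ones, and the 9 arrays are 3 groups of 3.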

How the data were processed

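RNA of 9 sphere samples was hybridised as biotinylated cRNA to Affymetrix mouse genome arrays, per the labels' protocols. The authors deposited 1 log2 value per probe set. The submitters' processing notes name GCRMA, with neither its version nor a genome build given in the sources used here. This method corrects background by probe sequence and normalizes between arrays, so a change in total RNA would be hidden. Groups and replicate numbers came from the titles.

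The table held 45101 probe sets, 64 of them controls, which were left out. In the supplied platform annotation 34958 had 1 symbol, 932 several and 9211 none, and 34754 were matched by identifier to RefSeq's gene table. The group means were fitted over 9 arrays in limma 3.58.1 (R 4.3.3), where the moderated variance had 2.51 prior and 6 residual degrees of freedom. P-values were two-sided and adjusted by Benjamini-Hochberg over 19914 probe sets. Tables, promoter motifs and plots were made in Python 3.11.15 with pandas 2.3.3. The number of arrays limits the precision.

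Every member probe set is named. The lead probe set was that of highest mean. Up to 4 called genes with the greatest difference from rNCSC and up to 2 not called, with the highest mean, were named per list. Other genes were named where they bear on a limit. The members and lists were chosen with earlier results of these data known. Alternatives changed the filter, the probe set per gene, the arrays fitted, the variance model, the normalization, the replicate block and each array in turn.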

Additional observations from a re-analysis of the deposited data

How the results depend on the processing

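Over all settings and the 3 comparisons, 1041 recomputed differences of member probe sets kept their side of the calling rule, 16 gained the call and 8 lost it. That total overstates what was tried. Many settings, such as another filter or variance model, leave the difference itself unchanged and alter only its adjusted p. In rNCSC against SCSC no member was called in any setting. The sign held in both comparisons with BMP NCSC for all 22 tested members, while in rNCSC against SCSC, where none was called, it turned for 7 of 22. With 1 probe set a gene, over 10319 genes, 2335 genes were called higher and 2197 lower in BMP NCSC than in rNCSC, with 2 members lower, Sox11 and Sox12. In BMP NCSC against SCSC 2366 were called higher and 2473 lower, with 1 member higher, Sox5, and 2 lower, since fewer features were tested. Leaving out each array in turn gave 0 to 1 members called higher against rNCSC and 1 to 4 against SCSC. In rNCSC against SCSC it gave 0 to 25 probe sets higher and 0 to 58 lower over the whole array, the highest without rNCSC replicate 2. The 1 probe set called lower there was 0 with only the 6 arrays compared, with the variance trend and robust prior, and with the replicate block. The cause was not tested. Same-numbered arrays had correlated deviations of 0.05 to 0.35 over 9 pairs, beside -0.34 to 0.21 for other numbers. When each array was looked up in each other group, its own number correlated best in 16 of 18 look-ups. These look-ups see each pair from both sides, and deviations sum to 0 within a group, so they are not independent. They give a hint that the numbers may mark something shared, while the labels do not say what a number marks. The replicate block changed no member's call, with 8 lower against rNCSC and 9 lower and 2 higher against SCSC, but Sox6 1434918_at missed the adjusted p limit against SCSC (0.073). Sox11 values near the lower end of the scale limit the size of its differences.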
